A study of Homo sapiens with 30 samples.

Results

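The genes described here are 10 genes of the epithelial-mesenchymal transition and of cadherin adhesion: the transcription factors SNAI2, ZEB1 and TWIST1, the classical cadherins CDH1, CDH2, CDH3 and CDH11, and the mesenchymal products VIM, SPARC and FN1. They were chosen by gene symbol, with earlier results of these data known, and every probe annotated to one of these symbols was taken. The array carries 14 such probes among 47231, of which 13 passed the filter on detection, so that 9 of the 10 genes are among the 13721 genes tested. ZEB1 has 1 probe, which was not detected on any array. The study measured gene expression with Illumina bead arrays in MCF-10A, an established non-transformed human breast epithelial line that overexpressed cyclin E in all groups, controls included. The cells of each group carried a stable short hairpin RNA (shRNA): shControl, shATM, shATR, shCHK1 or shCHK2, directed at the checkpoint kinases ATM and ATR and at their effector kinases CHK1 and CHK2. Each shRNA was labelled in a set 1 and a set 2, with cells harvested at 48 h and 3 replicate arrays per group, which gives 10 groups and 30 arrays. What distinguishes set 1 from set 2 is not stated in the labels, and neither is whether replicates were separate cultures, so p-values measure the spread between these arrays, which may be technical.

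In the epithelial-mesenchymal transition, epithelial cells lose their junctions and polarity and take up the cytoskeleton and matrix of mesenchymal cells. The repressors SNAI2 and ZEB1 and the bHLH factor TWIST1 bind E-box motifs and lower E-cadherin, the CDH1 product that holds epithelial cells together. N-cadherin (CDH2) and cadherin-11 (CDH11) are the classical cadherins of mesenchymal cells, and P-cadherin (CDH3) is that of basal epithelium. Vimentin (VIM) is an intermediate filament protein, SPARC a collagen-binding matrix glycoprotein and fibronectin (FN1) a matrix glycoprotein bound by integrins. MCF-10A cells have a largely basal character, and basal breast cells normally express SNAI2.

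Replicate arrays correlated at 0.988 to 0.996, and between 18984 and 21732 probes were detected per array. The first principal component (57.6% of the variance) separated the 6 control arrays from the 24 knockdown arrays, and the second (19.6%) separated the knockdown arrays of the 2 sets. On the third (3.1%), replicate 3 of shATR set 2 lay at 21.2 against 1.64 and 3.64 for its fellow arrays, and replicate 3 of shCHK2 set 1 at 30.1 against 11.5 and 13.4. ATM, CHEK1 and CHEK2 were lower in their own knockdown than in the other 3 knockdowns of the same set, at −0.76 and −0.67, −1.19 and −1.43, and −0.35 and −0.76 on the log2 scale in sets 1 and 2. Against control cells, ATM (−0.67 and −0.30) and CHEK1 (−0.38 and −1.18) were called lower in both sets, and CHEK2 in set 1 (−0.55) but not in set 2 (−0.15, adjusted p = 0.34). ATR was detected on 13 of 30 arrays. In the arrays labelled shATR it was called higher than in control cells in set 1 (0.65, adjusted p = 0.0014), differed by 0.03 in set 2, and differed from the other knockdowns by 0.40 and 0.24, so that this label could not be checked on its transcript. CCNE1, the cyclin E gene, differed by −2.72 to −0.94 on the log2 scale between the knockdown groups and the control of the same set. All 6 basal markers with a probe were detected on all 30 arrays. The log2 of the mean linear level of the 9 tested luminal markers lay between 10.65 and 11 on the control arrays. It lay between 7.62 and 8.91 on the knockdown arrays. The brightest markers weigh most in such a mean, so it does not show a fall of each marker. Of 9 fibroblast markers with a probe, COL3A1, PDGFRA and PDGFRB were detected on 0 of 30 arrays, FAP on all 30 and 5 on some, among them DCN on 15 and COL1A2 on 14. Of 7 endothelial markers, VWF, KDR, CLDN5 and EMCN were detected on 0 arrays and 3 on some. Of 7 leukocyte markers, CD3E and TYROBP were detected on 0 arrays, CD14 and CD68 on all 30 and 3 on some, with LAPTM5 on 24. The part of these markers in the results was not tested. In such bulk arrays, fewer cells of a type and less RNA per cell cannot be told apart.

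SNAI2, SPARC and VIM were higher than in control cells in all 4 knockdowns and both sets. Levels are given as background-corrected, quantile-normalised log2 intensities, on which the dimmest detected probe lay between 4.85 and 5.06 depending on the array. A gene was called when limma's adjusted p was under 0.05 over all genes tested. All 4 knockdowns of a set were compared with the same 3 control arrays and therefore share the error of that control.

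The log2 level of SNAI2 in control cells was 6.05, 6.48 and 6.14 on the 3 arrays of set 1. The control levels of set 2 were 5.44, 4.92 and 5.24, with the probe detected on 2 of these 3 arrays. The 24 knockdown arrays lay between 10.54 and 11.70, and no knockdown array overlapped a control array. In set 1 the knockdowns exceeded the control by 4.42 (shATM), 4.63 (shATR), 4.72 (shCHK1) and 5 (shCHK2) on the log2 scale, each with a standard error of 0.15, or 21.5- to 32-fold. The corresponding log2 differences of set 2 were 6.28, 6.13, 5.90 and 5.72, or 77.9- to 52.7-fold. The largest adjusted p among these 8 comparisons was 8e-19. A second SNAI2 probe gave log2 differences of 4.11 to 4.45 in set 1 and 5.01 to 5.65 in set 2.

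The larger SNAI2 difference in set 2 had contributions from both sides. The control of set 2 differed from that of set 1 by −1.02 ± 0.15 (SE) on the log2 scale (adjusted p = 1.6e-05), and the mean of the knockdowns was 0.29 ± 0.08 higher in set 2 (adjusted p = 0.0015). Among the knockdown groups the mean log2 levels ran from 11.48 ± 0.13 (SD, n = 3) in shATM set 2 to 10.64 ± 0.09 in shATM set 1, so that shATM held both the highest and the lowest place. The first 4 groups in rank, shATM set 2, shATR set 2, shCHK2 set 1 and shCHK1 set 2, overlapped from each to the next, and shCHK1 set 2 did not overlap the group below it, shCHK1 set 1. The highest single values of shATR set 2 (11.70) and shCHK2 set 1 (11.54) were those of the arrays that stood apart on the third component.

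TWIST1 was detected on all 30 arrays and did not follow SNAI2. Its log2 level was 6.91, 6.84 and 6.82 in control cells of set 1 and 7.53, 7.84 and 7.77 in those of set 2, an increase of 0.85 ± 0.14 (SE, adjusted p = 8.1e-05). In set 1 the 4 knockdowns differed from the control by 0.05, −0.13, −0.28 and 0.12 on the log2 scale (shATM, shATR, shCHK1 and shCHK2), and 0 of the 4 were called by limma, also at an unadjusted p under 0.05. The 95% interval of shCHK1, the farthest from 0, ran from −0.57 to 0.02. In set 2 TWIST1 fell in all 4 knockdowns, with log2 differences of −1.46, −1.21, −1.30 and −1.08 (SE 0.14, largest adjusted p = 3.8e-07). The 12 knockdown arrays of set 2 lay between 6.12 and 6.88, below all 3 control arrays of their set and overlapping the control arrays of set 1. TWIST1 lies on chromosome 7, where the median difference of 659 tested genes was −0.20 to −0.30 on the log2 scale in the 8 comparisons, against −0.01 to 0.01 over all genes. With that median subtracted, the set 2 differences were −1.20, −0.96, −1.03 and −0.82 and remained called, and in set 1 shCHK2 was called at 0.37.

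The ZEB1 probe lay between 4.22 and 4.59 on the log2 scale on all 30 arrays, below the dimmest detected probe of any of them. Its lowest detection p-value was 0.291. A difference in ZEB1 between groups was not detectable with this probe.

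**Figure D1:**
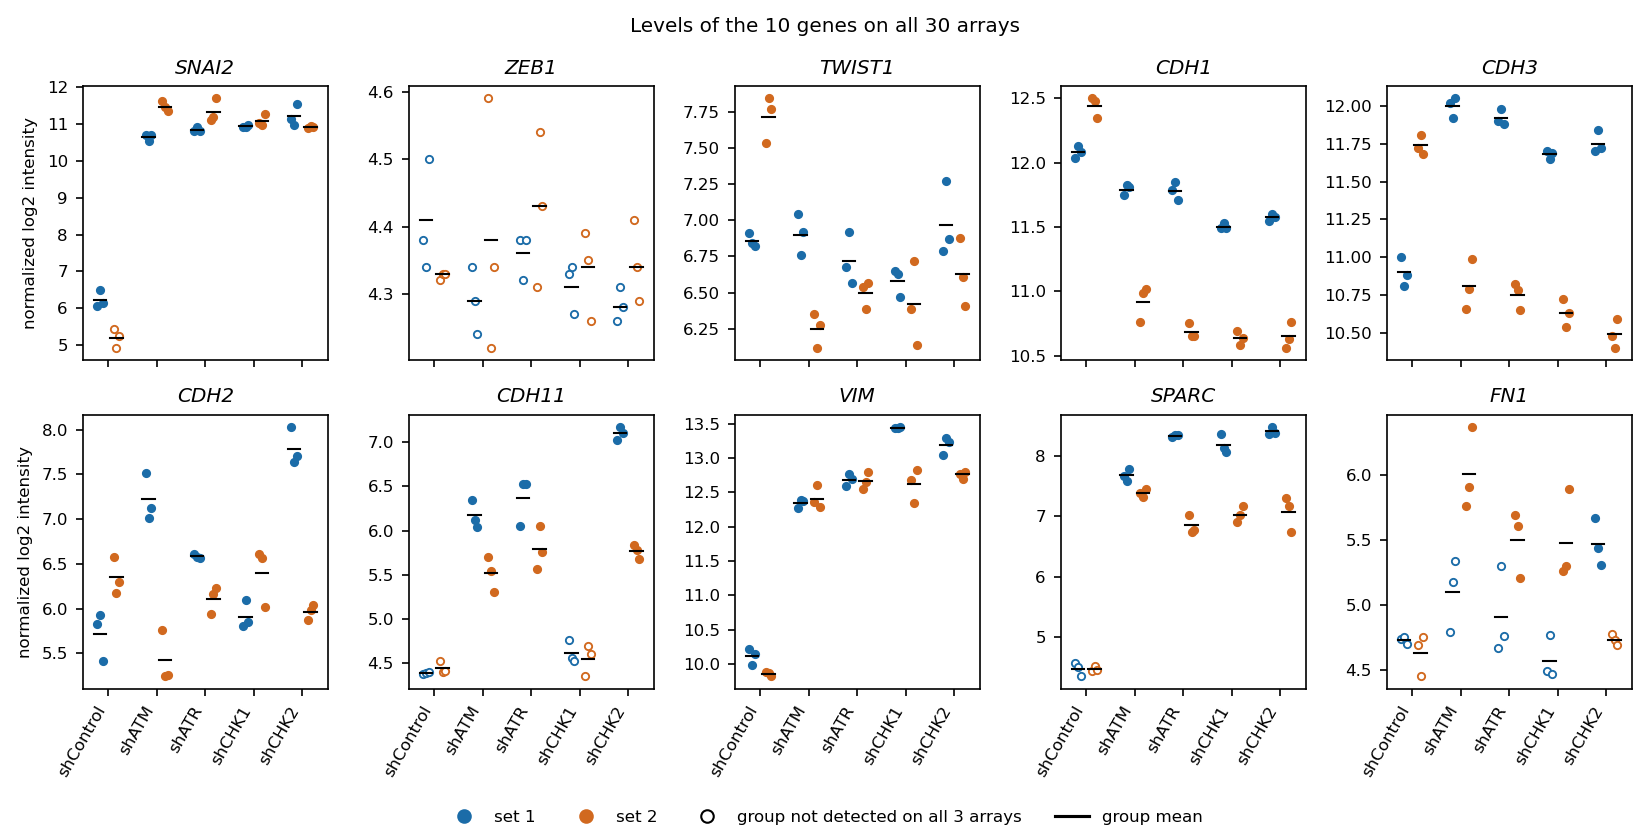
Normalized log2 intensity of the 10 genes on all 30 arrays by shRNA, 1 point per array, with set 1 in blue, set 2 in orange and the group mean as a black line; the axis range differs between panels, and open points mark groups whose probe was not detected on all 3 arrays. SNAI2, VIM and SPARC show no overlap between the 6 control and 24 knockdown arrays, CDH3 lies above its control in set 1 and below it in set 2, and CDH11 in shCHK1 stays at 4.35 to 4.76.

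Of the 2 cadherins of normal breast epithelium, CDH1 was lower in the knockdowns, more so in set 2, and CDH3 moved in opposite directions in the sets. The log2 level of CDH1 was 12.04, 12.13 and 12.08 in control cells of set 1, and its knockdown arrays lay between 11.49 and 11.85. For set 2 the control levels were 12.50, 12.48 and 12.35 and the knockdown arrays lay between 10.56 and 11.02. Control and knockdown arrays did not overlap in either set, and the knockdown arrays of set 2 were all below those of set 1.

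CDH1 fell in set 1, with log2 differences of −0.29, −0.30, −0.58 and −0.50 in shATM, shATR, shCHK1 and shCHK2 (SE 0.08, largest adjusted p = 0.0036), or 1.22- to 1.49-fold. It fell further below its control in set 2, with log2 differences of −1.52, −1.76, −1.81 and −1.79, or 2.87- to 3.5-fold (largest adjusted p = 7.3e-15). CDH1, CDH3 and CDH11 all lie on chromosome 16, where the median difference of 609 tested genes was −0.27 to −0.32 in set 1 and −0.40 to −0.44 in set 2. With that median subtracted, CDH1 differed in set 1 by 0.02 (adjusted p = 0.89), 0.03 (0.80), −0.24 (0.014) and −0.16 (0.11), so that only the shCHK1 call held. In set 2 it still differed by −1.12, −1.34, −1.40 and −1.37 and was called in all 4 knockdowns. Median scaling in place of quantile normalisation likewise left only the shCHK1 call in set 1, with CDH1 differences of −0.20, 0, −0.36 and −0.21. Median scaling moved the median difference of all genes by 0.04 to 0.18 in set 1.

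CDH3 stood at a log2 level of 11, 10.81 and 10.88 in control cells of set 1, against 11.65 to 12.05 on the 12 knockdown arrays. In set 2 the order was turned: the control arrays gave 11.72, 11.81 and 11.68 and the knockdown arrays 10.40 to 10.99. There was no overlap between control and knockdown arrays within a set. CDH3 rose in set 1 by 1.10, 1.02, 0.78 and 0.85 on the log2 scale (shATM, shATR, shCHK1 and shCHK2, SE 0.09), or 1.72- to 2.14-fold. It fell in set 2, with log2 differences of −0.93, −0.99, −1.11 and −1.25, or 1.90- to 2.37-fold, and the largest adjusted p of the 8 comparisons was 2.8e-08. The control cells themselves were 0.84 ± 0.09 (SE) higher in set 2, and the knockdown mean differed by −1.17 ± 0.04, on the log2 scale. Opposite signs also held with the chromosome 16 median subtracted, at 1.12 to 1.40 in set 1 and −0.83 to −0.52 in set 2. For the 6 basal markers, the log2 of the mean linear level was 10.04 to 10.17 in control cells of set 1. It was 11.41 to 12.08 in the knockdowns of set 1, and the brightest markers weigh most in it. In set 2 it was 10.58 to 10.68 in control cells and 10.28 to 10.69 in the knockdowns. The part of these values in the CDH3 result was not tested.

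The mesenchymal cadherins CDH2 and CDH11 separated the knockdowns from one another. CDH2 was detected on all 30 arrays at low log2 levels, at 5.83, 5.93 and 5.41 in control cells of set 1. It stood at 8.03, 7.64 and 7.71 in shCHK2, at 7.52, 7.01 and 7.12 in shATM, at 6.61, 6.58 and 6.57 in shATR and at 5.80, 6.10 and 5.85 in shCHK1. The shCHK2, shATM and shATR arrays of set 1 were all above the control arrays, and the shCHK1 arrays overlapped them. CDH2 rose in set 1 by 2.07 in shCHK2 (4.20-fold, adjusted p = 1e-10), by 1.5 in shATM (2.82-fold, 4.5e-08) and by 0.87 in shATR (1.82-fold, 0.00013), with an SE of 0.17. The shCHK1 difference was 0.19 (adjusted p = 0.39), with a 95% interval from −0.16 to 0.55.

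In set 2 CDH2 stood at a log2 level of 6.58, 6.17 and 6.30 in control cells and at 5.76, 5.24 and 5.26 in shATM, which fell by 0.93 (1.90-fold, adjusted p = 5.1e-05). The other 3 knockdowns of set 2 differed from their control by −0.24 (shATR), 0.05 (shCHK1) and −0.39 (shCHK2), with adjusted p of 0.25, 0.83 and 0.06. The shCHK2 difference was called in 4 of the 30 fits without 1 array, such as −0.47 (adjusted p = 0.042) without shControl set 2 replicate 2. It was also called with median scaling (−0.55, 0.02), the chromosome median subtracted (−0.45, 0.027) and the replicate number as a block (−0.39, 0.046). In the main fit CDH2 was thus the only tested gene of the 10 besides CDH3 that was called in opposite directions in the 2 sets of 1 knockdown, here shATM. Under the alternatives named above this held for shCHK2 as well.

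CDH11 was not detected in control cells, where its probe lay between 4.38 and 4.53 on the log2 scale, nor on any of the 6 shCHK1 arrays, at 4.35 to 4.76. It was detected on all 18 arrays of the other 3 knockdowns. In set 1 these gave 6.34, 6.12 and 6.04 in shATM, 6.05, 6.53 and 6.53 in shATR and 7.02, 7.17 and 7.10 in shCHK2. In set 2 they gave 5.70, 5.54 and 5.30 in shATM, 5.56, 6.05 and 5.76 in shATR and 5.84, 5.78 and 5.68 in shCHK2. No array of these 3 knockdowns overlapped an array of the control or of shCHK1.

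Because the control had no signal well above background, a fold is given as a lower bound, the mean of the brighter group over the level of the dimmest detected probe of the control arrays. Such bounds, here and below, hold only for the background-corrected levels used here. CDH11 was at least 2.34-fold higher in shATM, at least 2.68-fold in shATR and at least 4.46-fold in shCHK2 in set 1. The bounds in set 2 were 1.51, 1.83 and 1.80, and the largest adjusted p of the 6 comparisons was 1.6e-07. The fitted differences of shCHK1 were 0.22 and 0.10 on the log2 scale (adjusted p = 0.18 and 0.57). With the chromosome 16 median subtracted they were 0.56 and 0.51 (adjusted p = 0.0011 and 0.0025), although all values came from below background in both groups.

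**Figure D2:**
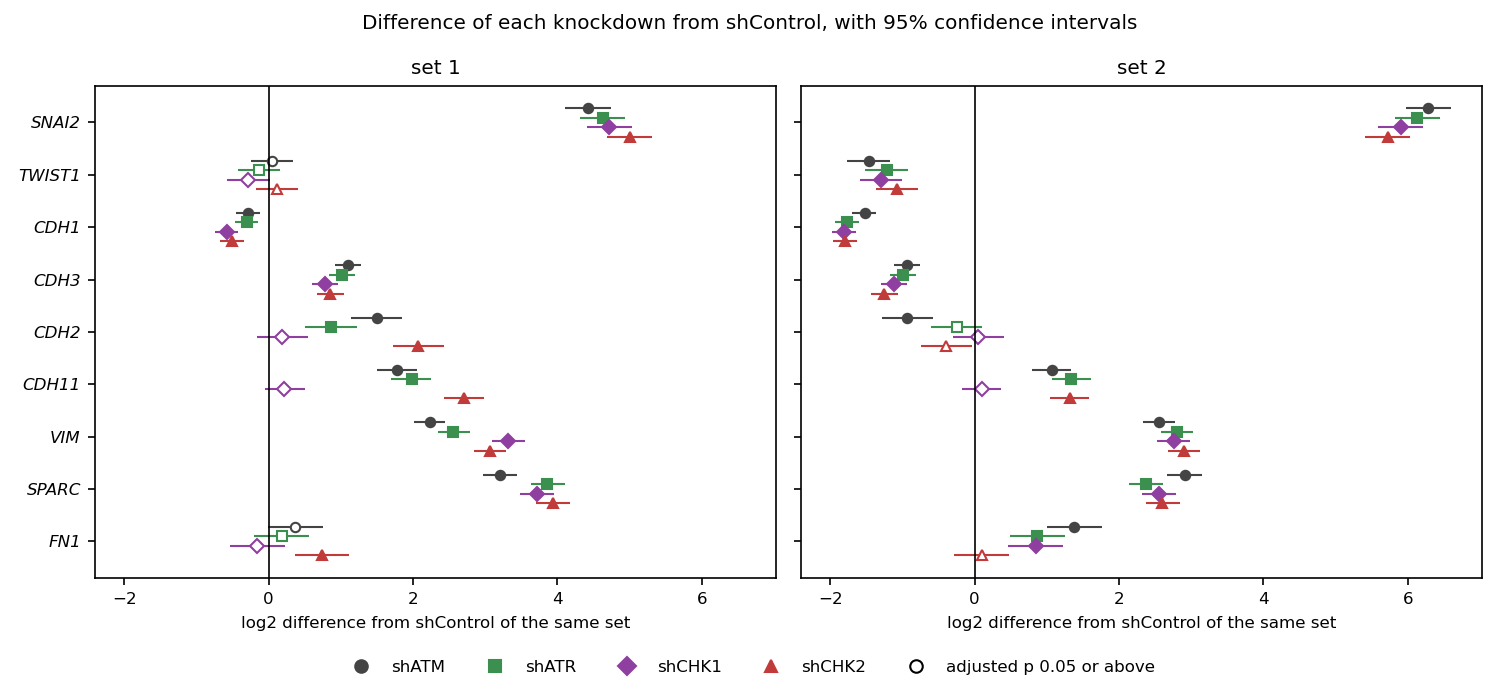
Log2 difference of each knockdown from the shControl arrays of the same set for the 9 tested genes, with 95% confidence intervals from the limma fit; open symbols mark an adjusted p of 0.05 or above, and the values of SPARC, CDH11 and FN1 are fitted against undetected controls. SNAI2 lies at 4.42 to 6.28, CDH3 on opposite sides of 0 in the 2 sets, and TWIST1 near 0 in set 1 and at −1.46 to −1.08 in set 2; CDH1 in set 1 lies at −0.58 to −0.29 and under median scaling at −0.36 to 0.

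VIM, the intermediate filament gene of mesenchymal cells, was already abundant in control cells and rose several-fold in each knockdown. Its log2 level was 10.22, 9.98 and 10.14 in control cells of set 1 and 9.88, 9.87 and 9.82 in those of set 2, against 12.27 to 13.45 on the 24 knockdown arrays. No knockdown array overlapped a control array. The log2 difference was 2.23, 2.56, 3.32 and 3.07 in set 1 (shATM, shATR, shCHK1 and shCHK2) and 2.56, 2.81, 2.76 and 2.90 in set 2, with an SE of 0.11. These correspond to folds between 4.70 and 10.0, and the largest adjusted p was 1.6e-15. A second VIM probe gave log2 differences of 2.47 to 3.5 in set 1 and 2.94 to 3.23 in set 2. In set 1 the shCHK1 arrays were the highest, at 13.43, 13.44 and 13.45, above all shATM arrays at 12.27, 12.39 and 12.38.

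SPARC was not detected on any control array, at 4.35 to 4.57 on the log2 scale, and was detected on all 24 knockdown arrays. In set 1 it stood at 7.67, 7.59 and 7.78 in shATM, 8.31, 8.35 and 8.35 in shATR, 8.36, 8.13 and 8.07 in shCHK1 and 8.37, 8.48 and 8.39 in shCHK2. The 12 knockdown arrays of set 2 lay between 6.75 and 7.46, below every knockdown array of set 1. SPARC was at least 6.66-, 10.5-, 9.49- and 11.1-fold higher than in control cells in set 1 and at least 5.54-, 3.82-, 4.33- and 4.47-fold higher in set 2 (largest adjusted p = 1.5e-15). The mean of the knockdowns in set 2 differed from that in set 1 by −1.07 ± 0.06 (SE) on the log2 scale (adjusted p = 1.6e-14).

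The promoter windows of VIM and SPARC, which rose together in all 8 comparisons, and of CDH2, which was called in opposite directions, are shown because SNAI2 and TWIST1 proteins bind E-boxes. Each window runs from 250 bases before to 50 bases after an annotated start, from RefSeq on build GRCh38.p14, where 5 of the 10 genes had an entry (VIM, SPARC, CDH2, FN1 and ZEB1). Capitals mark the E-box CANNTG, a pattern that matches on both strands at once, although its middle letters N can differ between them. The windows lie on the + strand at chr10:17227991-17228290 for VIM, and on the - strand at chr5:151686866-151687165 for SPARC and at chr18:28177081-28177380 for the first of 2 CDH2 starts.
VIM: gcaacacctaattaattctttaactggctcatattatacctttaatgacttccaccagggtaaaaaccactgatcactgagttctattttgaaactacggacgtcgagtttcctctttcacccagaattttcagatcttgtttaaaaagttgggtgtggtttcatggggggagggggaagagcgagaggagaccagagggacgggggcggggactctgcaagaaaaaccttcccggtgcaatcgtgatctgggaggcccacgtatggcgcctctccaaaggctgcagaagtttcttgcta
SPARC: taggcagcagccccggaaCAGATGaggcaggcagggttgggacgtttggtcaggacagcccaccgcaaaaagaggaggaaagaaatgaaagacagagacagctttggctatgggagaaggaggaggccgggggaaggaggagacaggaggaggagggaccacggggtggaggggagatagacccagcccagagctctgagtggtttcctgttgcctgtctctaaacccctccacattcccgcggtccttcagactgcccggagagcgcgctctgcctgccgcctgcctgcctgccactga
CDH2: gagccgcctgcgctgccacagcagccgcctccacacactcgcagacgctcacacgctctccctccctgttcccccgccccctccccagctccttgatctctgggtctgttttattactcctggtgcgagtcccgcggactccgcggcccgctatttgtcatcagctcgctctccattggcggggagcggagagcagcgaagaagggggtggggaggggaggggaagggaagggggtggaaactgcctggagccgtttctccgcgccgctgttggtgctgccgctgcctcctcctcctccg
The SPARC window holds 1 CANNTG and the printed windows of VIM and CDH2 hold 0. None of the 3 holds CAGGTG or its reverse complement CACCTG, which are forms of CANNTG. The window of the second CDH2 start, not printed, holds 1 CANNTG and 0 of CAGGTG or CACCTG. Of all 35116 promoter windows of this length, 68.7% hold CANNTG and 20.6% hold CAGGTG or CACCTG. A match or its absence describes only these letters in these windows.

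FN1 lay near background throughout. Its brightest probe was detected on 0 of 6 control arrays, at 4.45 to 4.75 on the log2 scale, and on 15 of 24 knockdown arrays. In set 2 the levels were 5.76, 5.91 and 6.37 in shATM, 5.69, 5.61 and 5.21 in shATR and 5.26, 5.30 and 5.89 in shCHK1, and FN1 was at least 2.14-, 1.5- and 1.48-fold higher than in control cells (largest adjusted p = 0.00034). In shCHK2 the sets were turned round. The shCHK2 arrays of set 1 gave 5.67, 5.44 and 5.31, at least 1.44-fold above the control (adjusted p = 0.0014), while those of set 2 gave 4.78, 4.73 and 4.69 and were not detected. The other 3 comparisons of set 1 were not called, although shATM was called at 0.53 (adjusted p = 0.034) without its replicate 1.

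The 3 FN1 probes did not give the same calls. A second probe, detected on 11 knockdown arrays, was called higher in shCHK2 set 1 (at least 1.36-fold), shATM set 2 (at least 1.43-fold) and shCHK1 set 2 (at least 1.17-fold). For shATR set 2, where the brightest probe was called, it was not (adjusted p = 0.74). The third, detected on 3 knockdown arrays, was called for shATM alone, in set 1 with a mean too near background for a fold and in set 2 at least 1.07-fold higher. The shATM set 2 call of FN1 was therefore the only one made by all 3 probes.

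Counted over the 9 tested genes, 5 were called in the same direction in both sets for shATM, against 32.2% of all genes tested. The counts were 5 for shATR (background 33.3%), 4 for shCHK1 (33.4%) and 5 for shCHK2 (33.9%). SNAI2, VIM and SPARC (higher) and CDH1 (lower) made up the count of shCHK1, and CDH11 (higher) was added in the other 3 knockdowns. The 3 genes called higher in all 8 comparisons stand against 10.4% of all genes, and the 1 called lower against 13.6%. CDH1 dropped out of this last count when the chromosome median was subtracted or median scaling used. Of all genes called in both sets, 45.4% were higher in shATR and 45.2% in shCHK2, and 59.9% and 59.6% with median scaling. The genes described here were chosen with earlier results of these data known. The shares of all genes set beside these counts, here and below, are therefore a description and not a test.

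In set 1, 7, 7, 5 and 8 of the 9 genes were called in shATM, shATR, shCHK1 and shCHK2 (backgrounds 48.5%, 48.9%, 50.3% and 51.3%), with 6, 6, 4 and 7 of them higher (24.1%, 24.6%, 25.4% and 26.1%). The set 2 counts were 9, 8, 7 and 7 (54.2%, 54.7%, 53.7% and 55.3%), with 5, 5, 4 and 4 higher (24.9%, 25.6%, 25.1% and 25.7%). SPARC, CDH11 and FN1 were detected on 0 of 6 control arrays and on 24, 18 and 15 of 24 knockdown arrays. They passed the detection filter through knockdown arrays alone. The filter thus favoured higher calls of these genes, here and in the counts above. With groups in which a probe was not detected held at the level of the dimmest detected probe, the median log2 difference over the 9 genes was 1.23, 1.02, 0.19 and 2.07 in set 1 and 0.60, 0.59, 0.05 and 0 in set 2. The medians of the fitted differences, some of them single values near background, were 1.5, 1.02, 0.22 and 2.07, and 1.07, 0.87, 0.10 and 0.10, beside −0.01 to 0.01 over all genes. On the average over both sets, 8, 8, 7 and 9 genes were called (58.6%, 59.7%, 59.6% and 61.1%). This average hides the opposite signs of CDH3, which differed by 0.09 (shATM, not called), 0.02 (shATR, not called), −0.16 (shCHK1) and −0.20 (shCHK2). The average of CDH3 was called higher in all 4 knockdowns with the chromosome median subtracted, so that its sign turned in shCHK1 and shCHK2, and both of these calls were lost with median scaling. When the sets were taken as the replicates, with 1 mean per shRNA and set, 4, 5, 4 and 5 genes were called (backgrounds 28.2%, 29.7%, 30% and 31.4%).

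To compare the knockdowns without the shared control, each was set against the mean of the other 3 of its set. CDH11 in shCHK1, where it was not detected, was the only one of the 9 genes lower in both sets, by at least 3.05-fold and 1.6-fold (adjusted p = 1.8e-12 and 2.5e-07), against 0.27% of all genes lower and 0.35% in either direction. In shCHK2, CDH11 was the only one of the 9 genes called in both sets (background 0.619% higher and 1.56% in either direction), at least 2.42-fold and 1.25-fold higher, since the other knockdowns include shCHK1 (adjusted p = 3.5e-09 and 0.0066). That second call was lost without shCHK2 set 2 replicate 1, and with median scaling, without background correction and in the authors' log2 values. Compared directly by limma in set 2, CDH11 in shCHK2 was not called against shATM (adjusted p = 0.27) or shATR (0.96). In set 1 it was called lower than in shCHK2 in both shATM (−0.93 on the log2 scale) and shATR (−0.73). Against the mean of the other 3 knockdowns, 0 of the 9 genes were called by limma in both sets for shATM and shATR (backgrounds 2.59% and 0.0364%). At an unadjusted p under 0.05, CDH1, CDH3 and VIM met the rule for shATM and CDH11 for shATR.

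Within a single set the knockdowns differed in more of the genes. In set 1, 3, 0, 5 and 6 genes were called for shATM, shATR, shCHK1 and shCHK2 (backgrounds 12.6%, 1.93%, 7.89% and 13.6%), and in set 2, 4, 1, 2 and 3 (10.6%, 2.94%, 2% and 5.83%). Besides CDH11, shCHK1 was lower than the other knockdowns of set 1 in CDH2 (−1.29) and CDH1 (−0.22) and higher in VIM (0.70), all on the log2 scale, and FN1, not detected there, was at least 1.17-fold lower. For shATR in set 1, where limma called 0 genes, 5 (CDH1, CDH2, CDH11, VIM and SPARC) had an unadjusted p under 0.05. The shCHK2 arrays of set 1 were higher in CDH2 (1.22), SNAI2 (0.41), VIM (0.36) and SPARC (0.35), and at least 1.4-fold higher in FN1. The shATM arrays of set 1 were lower in VIM (−0.76) and SPARC (−0.64) and higher in CDH2 (0.45). In set 2 the signs turned for several of these. There shATM was lower in CDH2 (−0.74) and higher in SPARC (0.40), CDH1 (0.27) and, by at least 1.59-fold, FN1. In the same set shCHK1 was higher in CDH2 (0.57), and FN1, not detected in shCHK2, was at least 1.55-fold lower there.

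**Figure D3:**
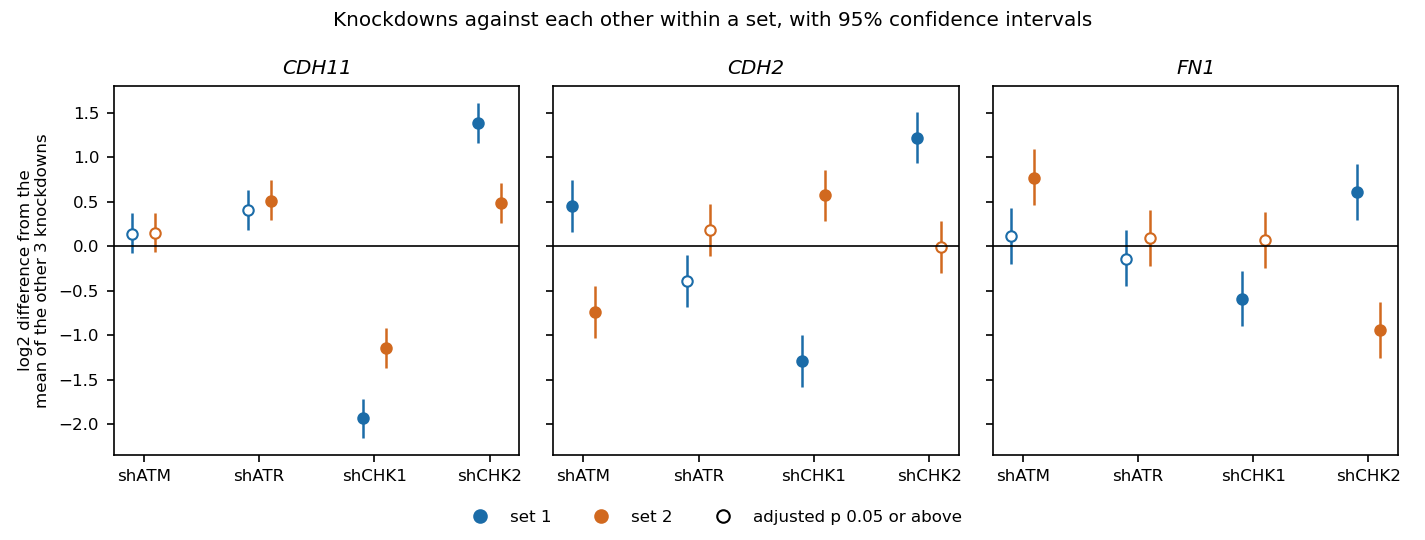
Log2 difference of each knockdown from the mean of the other 3 knockdowns of its set for CDH11, CDH2 and FN1, with 95% confidence intervals; set 1 is blue, set 2 orange, and open points have an adjusted p of 0.05 or above. The fitted values of CDH11 in shCHK1 and of FN1 in shCHK1 set 1 and shCHK2 set 2 come from probes not detected there and are bounded in the text; CDH11 in shCHK1 lies below 0 in both sets, whereas CDH2 in shATM and shCHK1 and FN1 in shCHK2 lie on opposite sides of 0 in the 2 sets.

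Pairs of knockdowns were also compared directly within a set, in 12 pairs of groups, with p-values adjusted over all genes within each pair. CDH11 differed in every pair that held shCHK1: in set 1 it was at least 2.35-fold (shATM), 2.7-fold (shATR) and 4.48-fold (shCHK2) higher than in shCHK1. The bounds of set 2 were 1.42, 1.72 and 1.69, and the largest adjusted p of the 6 comparisons was 2.4e-05. CDH2 differed in all 6 pairs of set 1, from 0.63 (adjusted p = 0.048) between shATM and shATR to −1.88 between shCHK1 and shCHK2, and in the 3 pairs of set 2 that held shATM. TWIST1 was called by limma in 0 of the 12 pairs, with 3 at an unadjusted p under 0.05, and SNAI2 only between shATM and shCHK2, by −0.58 in set 1 and 0.56 in set 2. In set 1, 2, 6, 5, 4, 3 and 3 of the 9 genes were called in the pairs shATM-shATR, shATM-shCHK1, shATM-shCHK2, shATR-shCHK1, shATR-shCHK2 and shCHK1-shCHK2 (backgrounds 2.51%, 12.7%, 16.9%, 4.05%, 7.27% and 7.71%). In the same order set 2 had 2, 3, 6, 1, 1 and 2 (8.37%, 6.39%, 10.4%, 1.61%, 3.11% and 3.13%).

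To see how far the difference from control depended on the set, the mean knockdown difference was compared between sets with an interaction term. It differed for 7 of the 9 genes (background 37%): CDH3 (−2.01), CDH2 (−1.53), CDH1 (−1.30), TWIST1 (−1.20), SPARC (−1.07) and CDH11 (−0.72) were lower in set 2 (21.5% of all genes) and SNAI2 (1.32) higher (15.5%), as differences of log2 differences. For VIM the term was −0.04 ± 0.12 (SE, adjusted p = 0.82), and for FN1 0.52 ± 0.21 (adjusted p = 0.053). The control cells alone differed between sets in 5 genes (background 15.3%), SNAI2 being lower in set 2 (7.18%) and TWIST1, CDH1 (0.36), CDH2 (0.63) and CDH3 higher (8.17%). The knockdown arrays differed between sets in all 9 (58.5%), with SNAI2 (0.29) and FN1 (0.42) higher in set 2 (25.1%) and the other 7 lower (33.5%). These are means over the knockdowns, from which single knockdowns departed. CDH2 was higher in set 2 in shCHK1 (0.49, adjusted p = 0.028), FN1 was lower in shCHK2 (adjusted p = 0.002), and SNAI2 in shCHK2 differed by −0.30 (adjusted p = 0.12). Among all genes called between sets, 42.8% were higher in set 2 in the knockdowns and 53.2% in the controls, and 31.1% and 68.8% with median scaling.

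Related genes were followed in 8 lists of 198 entries, 150 of them tested. The lists too were chosen with earlier results of these data known, so their counts are a description and not a test. Some listed genes passed the detection filter through 1 side alone. Among them were FBN2, FAT2, PCDHB2, THY1 and COL1A1 through knockdown arrays, and WNT5A and CDH5 through control arrays. Over all genes tested, 24.1% to 26.1% were called higher and 24.3% to 29.6% lower in a single comparison, and 10.4% higher and 13.6% lower in all 8. Of 24 epithelial surface and polarity genes tested, 14, 14, 14 and 15 fell in set 1 (shATM, shATR, shCHK1 and shCHK2), where 24.4%, 24.3%, 24.8% and 25.2% of all genes were lower. In set 2, 19, 19, 19 and 18 fell (29.3%, 29.1%, 28.6% and 29.6% of all genes). The median log2 difference of these genes was −1.26 to −0.60 in set 1 and −1.45 to −1.25 in set 2. Of these genes, 14 fell in all 8 comparisons. The log2 difference was −7.51 to −5.68 for the mucin gene MUC1, −3.57 to −2.30 for the receptor gene ERBB3 and −2.14 to −1.53 for the polarity gene LLGL2. KRT19, a keratin of simple epithelium, was at least 5.98-fold lower in the 6 groups where it was not detected. Of 14 regulators of the epithelial state, 7 to 11 fell per comparison and 6 fell in all 8 (4 with median scaling, with OVOL1, GRHL2 and ESRP1 not among them), including the transcription factor genes ELF3 (−3.69 to −2.56), GATA3 (−2.97 to −1.72) and FOXA1 (−1.64 to −0.81). OVOL1, a repressor of mesenchymal factors, was at least 1.47-fold lower in the 3 groups where it was not detected.

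Among 15 further transcription factors of the transition, 4 rose and 2 fell in all 8 comparisons, the latter near the share of all genes. The chromatin factor HMGA2 rose by 4.76 to 4.93 in set 1 and 2.78 to 3.11 in set 2 on the log2 scale, TWIST2, the paralogue of TWIST1, by 1.63 to 2.42 and 1.74 to 1.97. The bone factor RUNX2 was at least 2.02-fold higher in the 4 comparisons whose control it was not detected in. ID2, an inhibitor of bHLH factors, was at least 3.49-fold lower in the 3 groups where it was not detected. The median log2 difference of these 15 genes lay between −0.25 and 0.27.

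The mesenchymal lists did not share 1 direction. Of 19 cytoskeleton and surface genes, 9 to 11 rose per comparison in set 1 and 3 to 5 in set 2, where 8 to 10 fell. These are 47.4% to 57.9% and 15.8% to 26.3% higher, the latter near or below the share of all genes, and 42.1% to 52.6% lower. The receptor tyrosine kinase AXL (by 2.91 to 4.13) and the actin-bundling FSCN1 (0.43 to 1.15) rose in all 8 comparisons, whereas S100A4, often used as a fibroblast marker, fell (−6.47 to −4.6 on the log2 scale), as did ACTA2, smooth muscle actin (−1.13 to −0.47). Of 26 matrix genes, 10 to 12 rose in set 1 (38.5% to 46.2%) and 6 to 8 in set 2 (23.1% to 30.8%), where 11 to 13 fell (42.3% to 50%). The microfibril gene FBN2 was not detected in controls and was at least 31.2- to 52.1-fold higher, COL12A1 rose by 2.42 to 3.25 and COL4A1 by 1.64 to 2.18. MGP, an inhibitor of calcification, fell in all 8 comparisons and was at least 158-fold lower in the 4 groups where it was not detected. Without background correction FBN2 differed by 3.26 to 3.95 and MGP by −5.6 to −4.49 on the log2 scale, which is less than these bounds. The control cells of set 2 were higher than those of set 1 in 12 of the 26 matrix genes and 9 of the 19 cytoskeleton genes. They were lower in 2 of each. Of all genes, 8.17% were higher and 7.18% lower between the control sets.

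**Figure D4:**
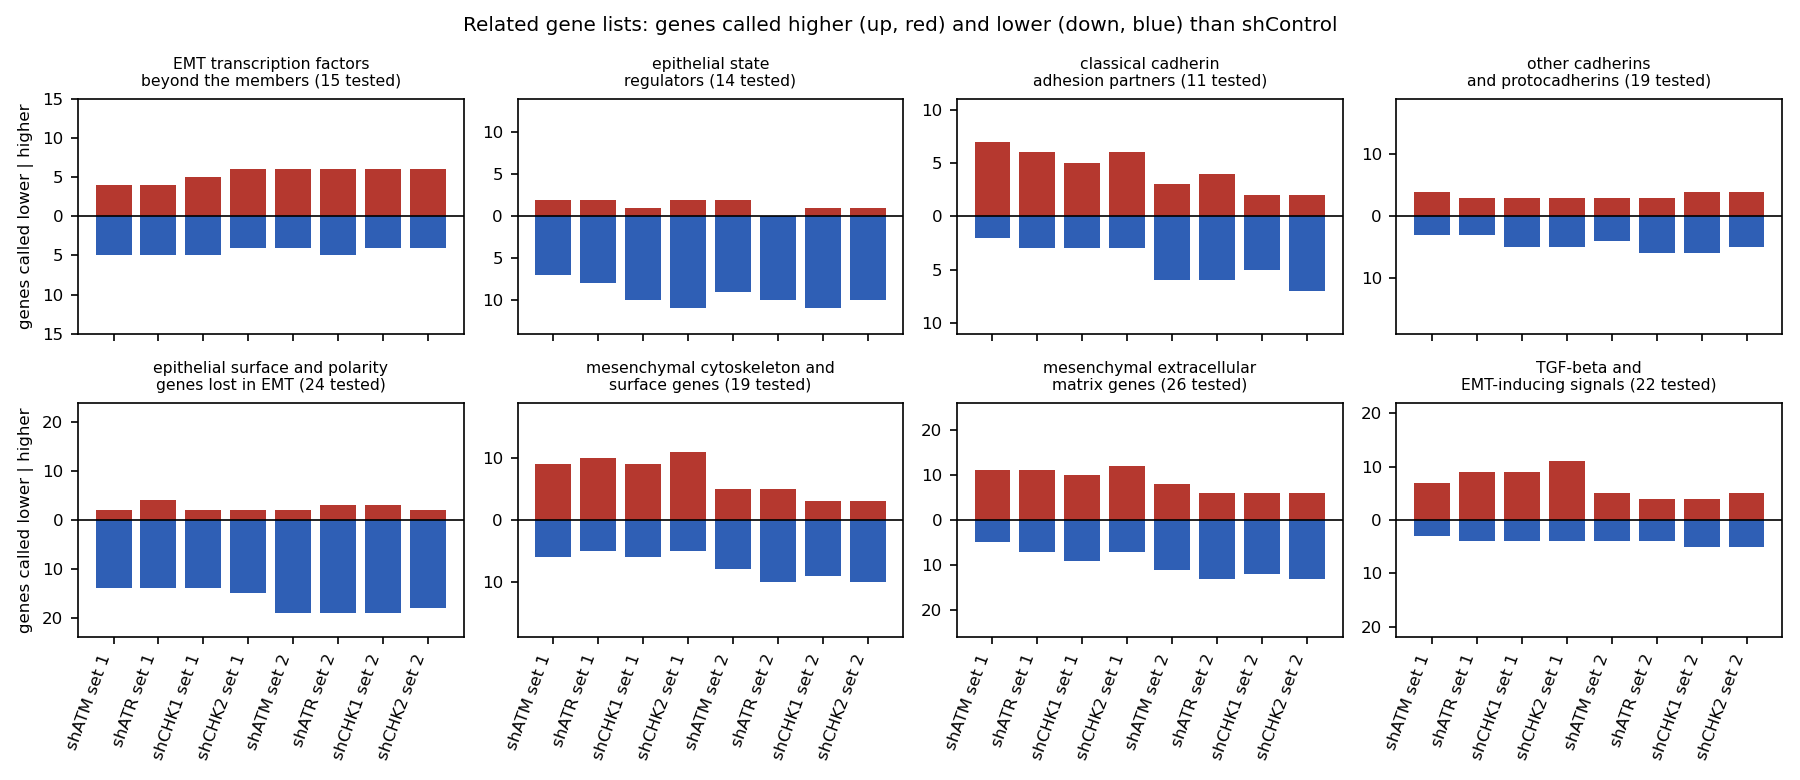
Number of genes of each of 8 related lists called higher (upward, red) or lower (downward, blue) than shControl in each knockdown and set, with the axis running to the number tested. Epithelial surface and polarity genes were mostly lower in all 8 comparisons (14 to 19 of 24), and both mesenchymal lists had more higher than lower calls in set 1 and the reverse in set 2.

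Partners of the classical cadherins followed the sets in their counts. Of 11 tested, 5 to 7 rose and 2 to 3 fell per comparison in set 1, and 2 to 4 rose and 5 to 7 fell in set 2, or 45.5% to 63.6% higher in set 1 and as many lower in set 2. CTNNA1, the alpha-catenin that ties cadherins to actin, differed by −0.68 to −0.33 in set 1 and −1.41 to −1.25 in set 2 on the log2 scale, all called. NECTIN4, a nectin, was at least 3.4-fold lower in the 5 groups where it was not detected. The actin-binding LIMA1 (1.56 to 3.00) and the catenin-like CTNNAL1 (1.22 to 2.37) rose in all 8 comparisons. Of 19 other cadherins and protocadherins, 3 or 4 rose (15.8% to 21.1%) and 3 to 6 fell (15.8% to 31.6%) per comparison, below or near the shares of all genes. FAT2, not detected in controls, was at least 5.84- to 9.54-fold higher, PCDH7 rose by 2.01 to 2.76, PCDHB2 was at least 1.02- to 2.15-fold higher, and CELSR3 fell (−2.73 to −2.18). Of 22 genes of TGF-beta and related inducing signals, 7 to 11 rose in set 1 (31.8% to 50%) and 4 or 5 in set 2 (18.2% to 22.7%). The Notch ligand JAG1 rose by 2.56 to 3.12 in set 1 and 0.62 to 1.46 in set 2, FGF2 fell (−2.63 to −0.67), and WNT5A, detected on 4 control arrays and no knockdown array, was called lower in all 8 comparisons.

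The genes whose pattern over the 10 group means was most like that of each member were found among all genes tested, by Pearson's r on log2 levels. These groups share the split between control and knockdown arrays and between sets, so high values are common, with 634 genes above 0.9 for SNAI2. For SNAI2 they were TFPI2 (0.992), BCAT1 (0.992) and TIPARP (0.990), for VIM KTN1 (0.991), LHFPL6 (0.990) and TMEM156 (0.990), and for SPARC MAMDC2 (0.990), NUP50 (0.987) and NBEA (0.987). CDH1 was most like KRT8 (0.993), a keratin of simple epithelium, followed by SMARCC2 (0.989) and ATP2B4 (0.985). CDH3 was most like SH3BGRL3 (0.987), SHKBP1 (0.982) and CLIC1 (0.982). The patterns of CDH2 and CDH11 were rarer, with 2 genes above 0.9 each: TCF20 (0.928) and TBC1D8B (0.914), followed by SPP1 (0.896), for CDH2, and POM121L12 (0.909) and TBRG1 (0.904), followed by the matrix gene VCAN (0.896), for CDH11. TWIST1, with 29 genes above 0.9, was most like GCNA (0.967), SFI1 (0.957) and RNU4-2 (0.944). The pattern of FN1, near background, was as rare as those of CDH2 and CDH11, with 2 genes above 0.9. It was most like ZSCAN2 (0.925), SNORA11C (0.909) and GCSAM (0.891).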

How the data were processed

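RNA of 30 samples was hybridised to Illumina bead arrays. The authors deposited a linear probe intensity per array with no background subtracted, per the file headers, and a detection p-value per probe and array, per the file headers; the scanner software is not given in the sources used here. The authors also deposited log2 values, whose columns hold 2 distinct medians at 6 decimals (6.88) and correlate with log2 intensity at 0.998 or more; they were used as an alternative. Every sample column was used.

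Intensities were processed with neqc in limma 3.58.1 (R 4.3.3), which estimated the negative controls by way of detection p-values, added an offset of 16 and quantile normalised the arrays. A probe was kept when detected (p under 0.05) on at least 3 arrays, which left 26967 of 47231. Of all probes, 30113 had 1 gene symbol, 8 several and 17110 none in the platform annotation. Each gene was read from its brightest kept probe, giving 13721 genes. lmFit and eBayes were fitted to 10 group means (20 residual degrees of freedom) with Benjamini-Hochberg adjustment over all genes, and a gene was called at an adjusted p under 0.05. The number of arrays, 3 per group, limits the precision. The procedure was tested on simulated data. Replicate numbers were not used to pair the arrays in the main fit. The members and the lists were chosen with earlier results of these data known. Named genes were all members, up to 4 genes per list with the largest smallest difference among those called in all 8 comparisons, the 3 genes most like each member, and the shRNA targets with CCNE1.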

Additional observations from a re-analysis of the deposited data

Results flagged for a closer look

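The following results were singled out because the difference between knockdown and control cells itself differed between the sets, tested with an interaction term in limma (set 2 minus set 1, log2 scale). SNAI2 differed by 1.32 (adjusted p = 7.1e-07), with a larger rise in set 2. CDH3 differed by −2.01 (2e-14), with 12 of 12 knockdown arrays above the control in set 1 and 12 of 12 below it in set 2. CDH2 differed by −1.53 (4.9e-07), CDH1 by −1.30 (9.8e-12), TWIST1 by −1.20 (1.2e-06) and SPARC by −1.07 (2.4e-07). CDH11 differed by −0.72 (adjusted p = 4e-04), with shCHK1 below background in both sets. For SPARC and CDH11 the control was below background in both sets, so that these terms rest on the knockdown levels. What distinguishes the sets is not stated in the labels, and its part in these differences was not tested.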

How the results depend on the processing

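The 72 differences of the 9 tested genes from their controls were recomputed under 12 other settings and without each of the 30 arrays in turn, which gave 3024 values. Of these, 2998 kept their direction and side of the threshold and 12 changed sign. Among those that kept their sign, 3 lost and 11 gained a call. Sign changes under median scaling were TWIST1 in shATR set 1 (0.07), CDH1 in shATR set 1 (0) and CDH2 in shCHK1 set 2 (−0.16), and with the chromosome median subtracted TWIST1 in shATR set 1 (0.16) and CDH1 in shATM (0.02) and shATR (0.03) set 1. Without 1 array, values ran from −0.06 to 0.24 for CDH2 in shCHK1 set 2 (with −0.04 and −0.03 also below 0), −0.02 to 0.12 for TWIST1 in shATM and −0.03 to 0.21 in shCHK2 set 1, and −0.01 to 0.30 for FN1 in shATR set 1. None of these 12 was called under the alternative. Those of CDH1 had been called in the main fit, so that these calls were lost as well. Sizes also depended on the setting. Under the 12 other settings the log2 difference in shATM ran from 4.49 to 6.43 for SNAI2 in set 2. For SPARC in shATM set 1 it ran from 1.47 to 3.3, and for CDH11 there from 0.67 to 2.08.

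Counts called in both sets were 5 to 6, 5, 4 and 5 without 1 array (shATM, shATR, shCHK1, shCHK2; FN1 was gained without shATM set 1 replicate 1) and 4 or 5 otherwise. Against the other knockdowns, shATM had 2 genes in the authors' log2 values and without background correction (CDH1, VIM) and 1 with median scaling, an offset of 50, detection on 15 arrays or array weights; shATR had 1 (CDH11) with median scaling, detection on 15 arrays or the mean of probes; shCHK2 had 0 in the authors' values, without background correction and with median scaling. Without 1 array these counts were 0 to 1 (shATM), 0 to 1 (shATR), 1 (shCHK1) and 0 to 1 (shCHK2). CDH11 was gained for shATR without replicate 1 of shATM, shATR or shCHK1 in either set or replicate 3 of shATM set 2. For shATM, CDH3 was gained without shATM set 2 replicate 1, and VIM without shATM set 2 replicate 2, shATR set 2 replicate 1, shCHK1 set 2 replicate 2 or shCHK2 set 1 replicate 1. On the average over sets they were 7 to 8, 7 to 8, 5 to 7 and 9 without 1 array, 4, 5, 4 and 5 with means per shRNA and set, and 5 for shCHK2 with the group as a random block. Between sets the counts without 1 array were 9 (knockdowns), 4 to 5 (controls, with CDH2 lost without shControl set 1 replicate 3 or set 2 replicate 1) and 7 to 8 (interaction). Under the other settings they were 8 to 9 (VIM lost with median scaling), 5 to 6 (VIM gained with the mean of kept probes) and 7 to 8 (FN1 gained). The cause of these changes was not tested.

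The replicate number as a block changed 1 call, CDH2 in shCHK2 set 2 (−0.39, adjusted p = 0.046). Arrays of the same number had a mean residual correlation of 0.002 to 0.017, against −0.005 for different numbers. Of 30 arrays, 16 were most like their own number, and whether the numbers mark a pairing was not tested. Leaving out both arrays that stood apart on the third component, added after seeing the data, changed no count of the 9 genes by over 1.5 times. No list gene called in all 8 comparisons changed sign with the authors' values, without background correction, with median scaling or with the chromosome median subtracted. Calls were lost, however. Subtracting the chromosome median took CDH5 to 0, ESRP1 to 5, MARVELD3 to 6 and GRHL2 and MMP14 to 7 calls of 8. CDH5 and MMP14 had 7 calls in the authors' values and without background correction. Median scaling took OVOL1, ACTA2, FGF2, RAB25 and MMP14 to 7, CTNNA1, GRHL2 and TPM2 to 6 and ESRP1 to 4 calls of 8, changed the epithelial regulators lower in all 8 from 6 to 4, and cut the genes lower in all 8 to 1 among cytoskeleton genes, adhesion partners and inducing signals. Detection on 15 arrays cut those of the matrix list from 4 to 1, and array weights raised those of the cytoskeleton list from 3 to 5. A chip block was not run, since no chip is named. ZEB1, FN1 and the controls for SPARC and CDH11 were limited by signal near background.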

Other observations

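Some markers of other cell types, picked here after their values were seen, were detected in part of the groups. CDH5, the endothelial cadherin, was detected on 5 of 6 control arrays and 0 of 24 knockdown arrays, and the endothelial surface gene PECAM1 on 6 and 4. Of the other endothelial markers with a probe, TEK went the other way, on 0 and 3, and VWF, KDR, CLDN5 and EMCN were detected on 0. The fibroblast surface gene THY1 was detected on 0 of 6 control arrays and on 18 of 24 knockdown arrays. Of the other 8 fibroblast markers with a probe, FAP was detected on 6 and 24, DCN on 3 and 12, COL1A2 on 3 and 11, COL1A1 on 0 and 6, LUM on 1 and 1, and COL3A1, PDGFRA and PDGFRB on 0. THY1 was not detected on the 3 arrays of shATM set 2 and the 3 of shCHK1 set 1.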
